A study of Mus musculus with 12 samples.

Results

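The coagulation and complement factors of blood plasma were examined in mouse liver cells that had been derived from hepatocytes or from bile duct cells and grown as a layer or as spheroids. The genes were taken by symbol from the table of gene counts: F2, F5, F7, F9, F10, F11, F12, F13b, Klkb1, Kng1, Kng2, Fga, Fgb, Fgg, Proc, Pros1, Serpinc1, Serpind1, Plg, Serpinf2, Cpb2, Hrg, Vtn, C1ra, C1s1, C2, C4b, Masp1, Masp2, Mbl1, Mbl2, C3, Cfb, Cfi, C4bp, Hc, C6, C8a, C8b, C8g and C9. These are 41 of the 53599 genes in the table. They were picked by symbol, with earlier results of these data known. All 41 passed the filter on low counts.

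Most of these proteins are made by hepatocytes and secreted into blood, where many circulate as inactive precursors. In coagulation, a chain of serine proteases ends in thrombin, which cuts fibrinogen into the fibrin of a clot, and plasmin later dissolves it. In complement, the classical, lectin and alternative routes meet at C3, after which the terminal components assemble into a pore in the target membrane. Several of the genes, fibrinogen and C3 among them, are known as acute phase genes that respond to cytokines of the interleukin 6 family.

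RNA-seq had been done on 12 cultures, 3 in each of 4 groups, in a series about the plasticity of liver progenitor-like cells between the hepatocyte and biliary fates. By their labels, hepCLiP cells were derived from mouse hepatocytes, bilCLiP cells from the biliary epithelium. For the 3D groups, cells were first aggregated in microwells for 3 days in a small hepatocyte medium (SHM) that held Y-27632, A83-01 and CHIR99021 but no serum. The aggregates were then moved to suspension for 6 to 8 days with the same inhibitors and 10 ng/ml oncostatin M, an interleukin 6 type cytokine. The 2D groups were grown on collagen-coated plates in SHM with the same 3 inhibitors and 10% fetal bovine serum. Geometry, serum, oncostatin M and time in culture thus changed together and cannot be told apart. The genotype was RosaYFP, a fluorescent reporter at the Rosa26 locus, in all bilCLiP samples and in hepCLiP replicate 2, and RosaConfetti, a multicolour reporter, in hepCLiP replicates 1 and 3. Groups follow the sample titles. The treatment label contradicts the title in 4 samples: it reads 2D for the 3 bilCLiP 3D samples and 3D for hepCLiP 2D replicate 3.

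The libraries held 16142365 to 21253382 counts, and 14798 genes were tested. Levels are given as CPM, the count of a gene relative to the total of its library after scaling. A gene is said to have risen or fallen where edgeR's quasi-likelihood test gave a Benjamini-Hochberg adjusted p under 0.05 over all genes tested, and every adjusted p below comes from that test unless DESeq2 is named. The hepCLiP replicates carried different genotypes and so did not all come from one animal. The labels do not otherwise tie replicates to different animals. A p-value here measures only how far these cultures spread, which in hepCLiP includes genotype. Same-numbered 3D and 2D cultures of one origin deviated together (r 0.432 to 0.513). The main test does not use this pairing, and a replicate block was run as an alternative. Whether the shared part reflects animals, cell preparations or handling is not known. In bulk RNA, fewer cells of one type and less RNA per cell cannot be told apart.

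The sequences just before the starts of the 3 fibrinogen genes and of C3 are shown because these 4 genes gave most of the counts of the whole set and are textbook targets of interleukin 6 type cytokines. They are RefSeq promoter windows on the GRCm38.p6 build, 250 bases upstream of the annotated start, written 5′ to 3′ on the strand of the gene. Capitals mark matches on either strand to a STAT3 site (TTCNNNGAA), an acute phase element (CTGGGAA), a C/EBP site (TTGCNNAA), the core of an HNF1 site (GTTAAT) or an HNF4 site (CAAAGNNCA), and no capitals here belong to overlapping matches. Fga lies on the plus strand (chr3:83025903-83026152), Fgb on the minus strand (chr3:83049864-83050113), Fgg on the plus strand (chr3:83007474-83007723) and C3 on the minus strand (chr17:57228137-57228386).
Fga: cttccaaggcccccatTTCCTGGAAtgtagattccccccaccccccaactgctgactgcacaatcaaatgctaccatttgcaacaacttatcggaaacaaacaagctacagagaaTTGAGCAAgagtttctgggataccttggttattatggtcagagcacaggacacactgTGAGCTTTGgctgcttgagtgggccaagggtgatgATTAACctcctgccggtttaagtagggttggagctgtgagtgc
Fgb: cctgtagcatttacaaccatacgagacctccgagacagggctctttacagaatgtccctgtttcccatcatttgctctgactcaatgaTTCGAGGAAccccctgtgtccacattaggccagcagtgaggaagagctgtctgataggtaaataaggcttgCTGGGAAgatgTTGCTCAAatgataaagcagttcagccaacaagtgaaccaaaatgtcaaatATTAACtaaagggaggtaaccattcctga
Fgg: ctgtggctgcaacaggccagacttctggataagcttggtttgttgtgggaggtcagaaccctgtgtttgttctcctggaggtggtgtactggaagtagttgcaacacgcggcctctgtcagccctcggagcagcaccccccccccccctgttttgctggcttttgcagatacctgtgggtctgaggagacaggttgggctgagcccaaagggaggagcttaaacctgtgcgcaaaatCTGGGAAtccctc
C3: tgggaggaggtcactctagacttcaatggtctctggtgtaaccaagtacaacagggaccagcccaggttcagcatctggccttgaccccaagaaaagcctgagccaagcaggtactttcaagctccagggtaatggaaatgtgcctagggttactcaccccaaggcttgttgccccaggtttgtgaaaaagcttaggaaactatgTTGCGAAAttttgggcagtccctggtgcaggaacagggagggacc

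The Fga window held a STAT3 match 234 bases before the start, a C/EBP match at 135, an HNF4 match at 78 and an HNF1 match at 43. The Fgb window held a STAT3 match at 162 bases, an acute phase element at 91, a C/EBP match at 80 and an HNF1 match at 29. The Fgg window held an acute phase element 13 bases before the start, and the C3 window a C/EBP match at 45. Of the 41 genes, 33 had a window in the promoter table. The C/EBP letters were present in 10 of the 33 windows (30.3%), against 9.56% of all 32851 windows in the table. HNF1 letters were present in 9 (27.3%, against 6.43%), STAT3 letters in 6 (18.2%, against 7.02%), acute phase letters in 5 (15.2%, against 9.10%) and HNF4 letters in 4 (12.1%, against 5.49%). The TATA box letters TATAAA were present in 3 windows (9.09%, against 12.4%). A match of letters describes the sequence and does not show that a factor binds there.

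In both cell types, nearly the whole set was far higher in 3D than in 2D. In hepCLiP 36 of the 41 genes rose and 1, the lectin pathway protease Masp1, fell. Of all genes tested in that comparison 34.7% were called, 16.9% as higher and 17.9% as lower. In bilCLiP 37 rose and Masp1 fell, where 30.3% of all genes were called, 15.8% as higher and 14.5% as lower. The median log2 fold change of the 41 genes was 6.47 in hepCLiP, against -0.06 over all genes tested. In bilCLiP it was 7.55, or 7.06 with 6 genes that had no count in 2D set at their bounds, against 0.00 over all genes. Among the RosaYFP samples alone, with 1 hepCLiP library in each culture taken to vary like the bilCLiP libraries, 17 genes were called in hepCLiP, all higher, where 4.82% of all genes were called, and 36 in bilCLiP, where 26.9% were. F11 then had the opposite sign in hepCLiP (-1.20, adjusted p = 0.637). Rises of at least 8-fold were called for 33 genes in hepCLiP and 34 in bilCLiP, where 4.51% and 4.65% of all genes rose that much. With no filter on low counts, Klkb1, Serpind1 and Serpinf2 missed the threshold in hepCLiP and Proc, Serpinf2, Cpb2, Masp1, Mbl2 and C8a in bilCLiP (adjusted p 0.0524 to 0.129). In a test against a 2-fold change, Klkb1, Serpind1, Serpinf2, C2 and Masp1 missed it in hepCLiP and Proc, Cpb2 and Masp1 in bilCLiP (adjusted p 0.0530 to 0.176).

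Summed over the 41 genes, hepCLiP 3D libraries gave 9.84% ± 0.998 of their counts to the set, against 0.340% ± 0.0314 in hepCLiP 2D (SD, n = 3 each). The share was 9.56% ± 1.69 in bilCLiP 3D, against 0.224% ± 0.151 in bilCLiP 2D (SD, n = 3 each). Fibrinogen alone made up 4.52% to 6.87% of the counts of the 3D libraries, and C3 made up 1.75% to 2.19%. In hepCLiP, all 3 libraries of one culture lay above all 3 of the other for 38 genes in favour of 3D and 1 in favour of 2D, where 22.3% and 24.5% of all genes did so. In bilCLiP, 37 genes did so in favour of 3D and 1 in favour of 2D, where 24.6% and 24.5% of all genes did so.

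**Figure D1:**
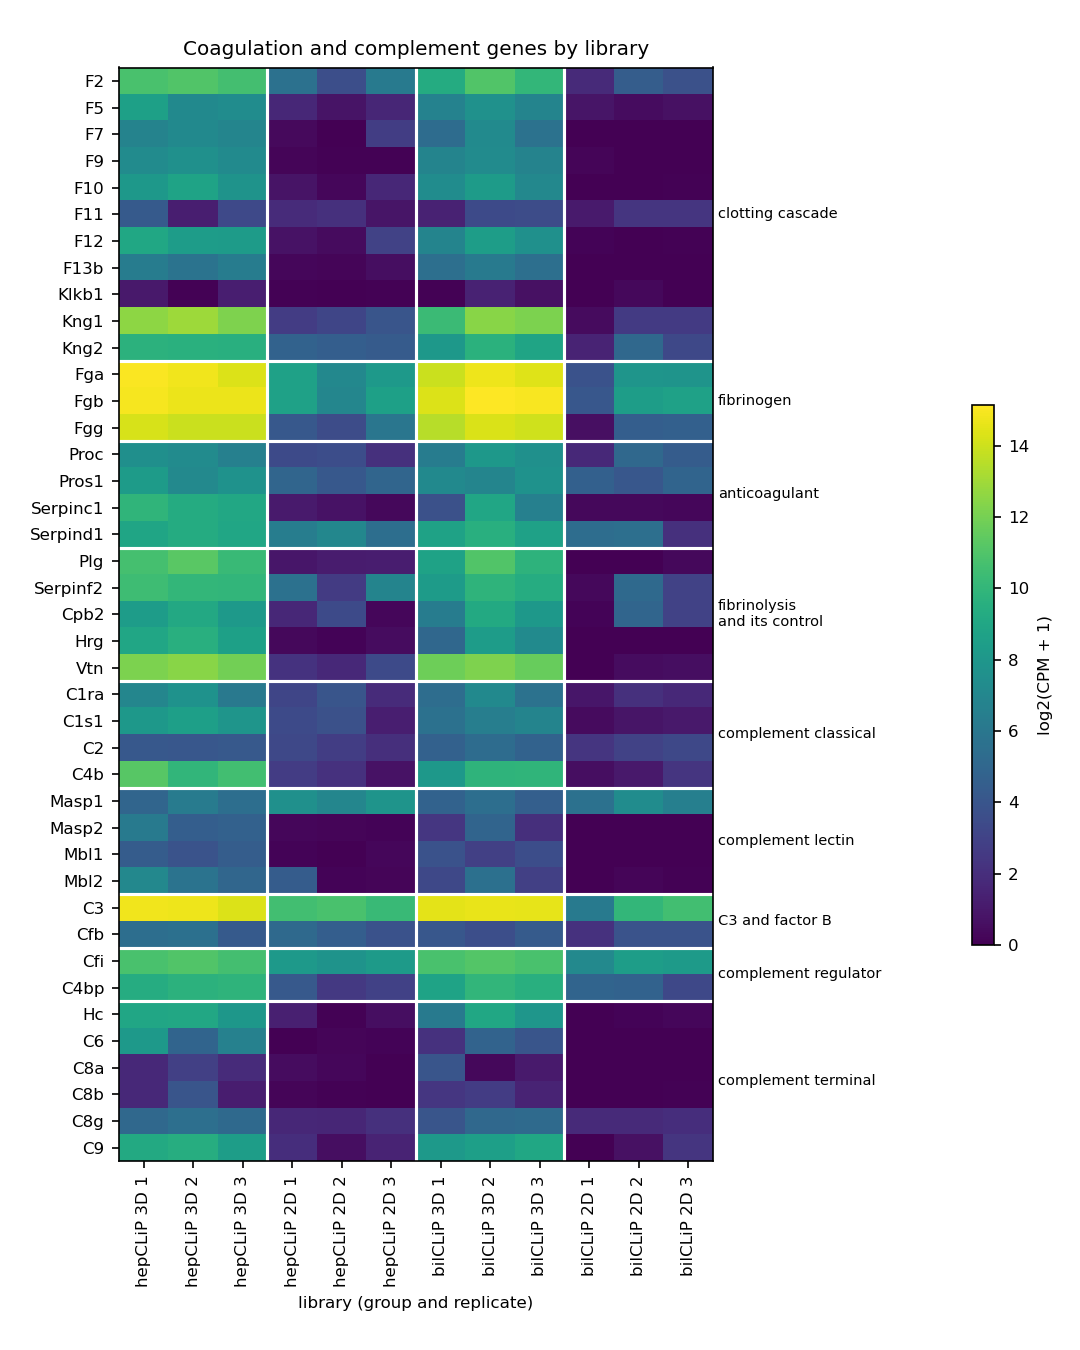
Level of each of the 41 genes, as log2(CPM + 1), in each of the 12 libraries, with genes in rows by role and libraries in columns by group and replicate. Fibrinogen and C3 are the brightest rows in the 3D columns, and Masp1 is the row that is brighter in the 2D columns.

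**Figure D2:**
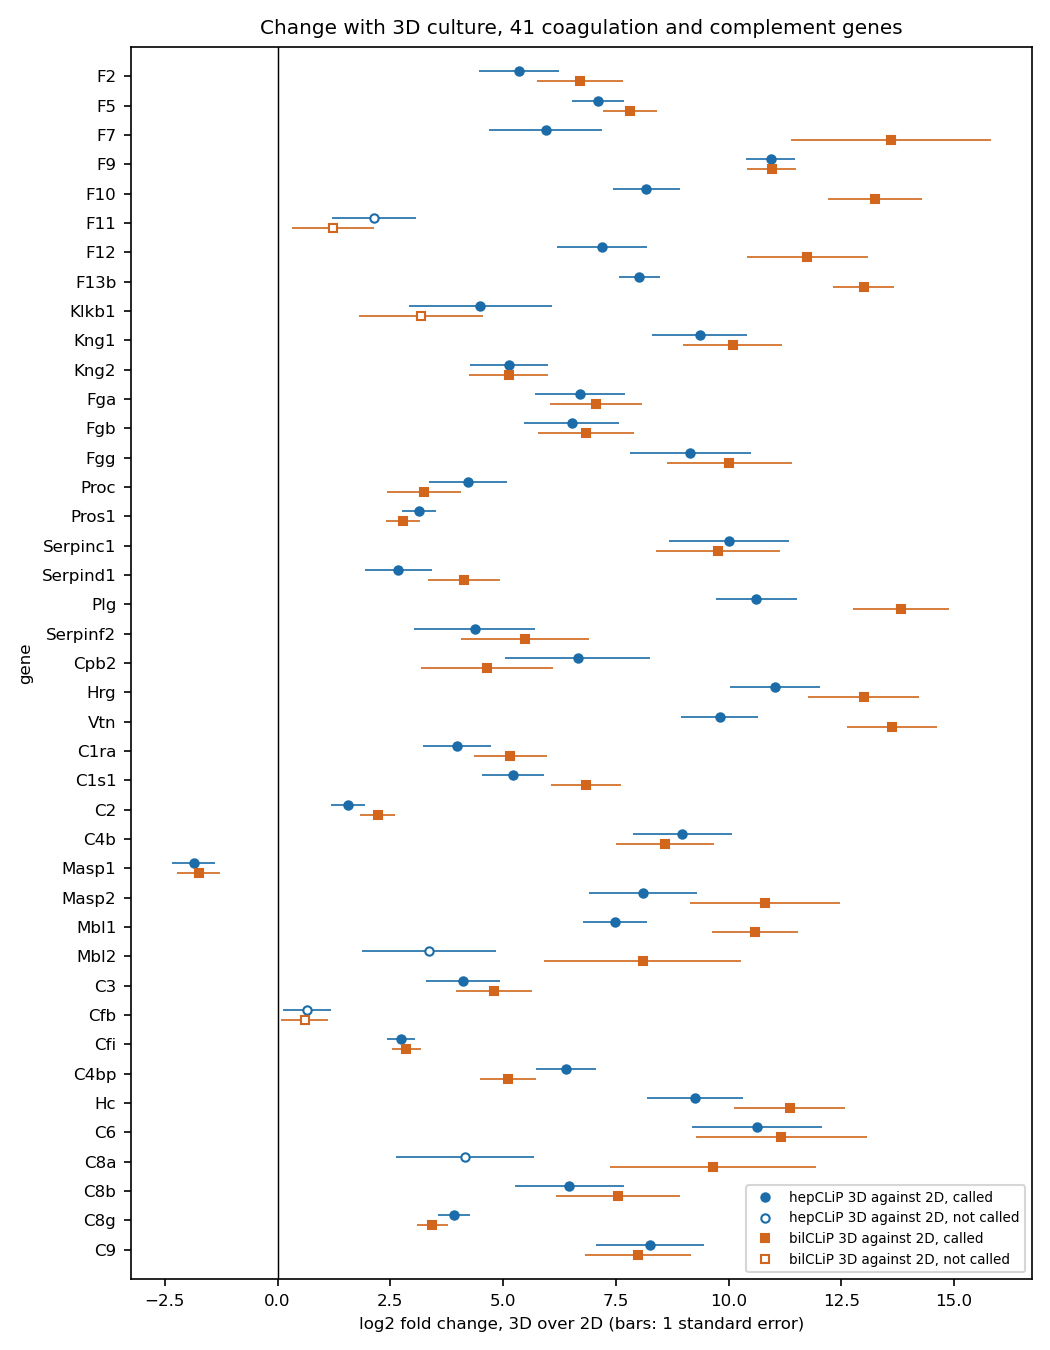
Log2 fold change, 3D over 2D, of each of the 41 genes in hepCLiP (circles) and bilCLiP (squares), with bars of 1 standard error and filled symbols for genes called. All points but those of Masp1 lie to the right of 0, and the largest bilCLiP values belong to genes with few or no counts in bilCLiP 2D, whose fitted values are not bounds.

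The 3 fibrinogen chains, Fga, Fgb and Fgg, which assemble into one protein, rose in both cell types. Fga had 34510, 29010 and 21030 CPM in the hepCLiP 3D libraries, against 403, 136 and 275 CPM in hepCLiP 2D (log2 fold change 6.70, SE 1.00, adjusted p = 0.000719). It had 15550, 27390 and 21280 CPM in bilCLiP 3D, against 12.9, 238 and 230 CPM in bilCLiP 2D (log2 fold change 7.06, SE 1.02, adjusted p = 0.000720). All 3D libraries lay far above all 2D libraries, and bilCLiP 2D replicate 1 was the lowest of the 2D libraries.

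Fgb had 31290, 26890 and 26300 CPM in hepCLiP 3D, against 406, 125 and 390 CPM in hepCLiP 2D. In bilCLiP Fgb had 20770, 36130 and 32320 CPM in 3D, against 16.5, 350 and 409 CPM in 2D. Its log2 fold changes were 6.52 in hepCLiP (SE 1.05, adjusted p = 0.00108) and 6.85 in bilCLiP (SE 1.07, adjusted p = 0.00108). Fgg had 18830, 15820 and 15320 CPM in hepCLiP 3D, against 16.7, 10.6 and 60.4 CPM in hepCLiP 2D (log2 fold change 9.15, SE 1.33, adjusted p = 0.000647). In bilCLiP, Fgg had 11740, 19810 and 17100 CPM in 3D, against 0.560, 22.1 and 24.3 CPM in 2D (log2 fold change 10.02, SE 1.38, adjusted p = 0.000560). Without hepCLiP 2D replicate 3, the hepCLiP value for Fgg was 10.25.

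Divided by exon length, the 3 chains stood close together in 3D and apart in 2D. In hepCLiP 3D the levels per kilobase of exon were 9364 ± 2252 CPM for Fga, 7391 ± 716 CPM for Fgb and 7958 ± 906 CPM for Fgg (SD, n = 3). In hepCLiP 2D they were 90.1 ± 44.5 CPM for Fga, 80.5 ± 41.4 CPM for Fgb and 14 ± 13 CPM for Fgg. In bilCLiP 3D the levels per kilobase were 7112 ± 1968, 7806 ± 2099 and 7748 ± 1964 CPM for Fga, Fgb and Fgg. In bilCLiP 2D they were 53.2 ± 42.4, 67.9 ± 55.6 and 7.48 ± 6.27 CPM in the same order. Within each of the 6 2D libraries Fgg was the lowest of the 3 chains per kilobase, while Fgb was lowest in the 3 hepCLiP 3D libraries and Fga in the 3 bilCLiP 3D libraries. These lengths are union exon lengths from a GENCODE annotation and may differ from those of the annotation used for counting.

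**Figure D3:**
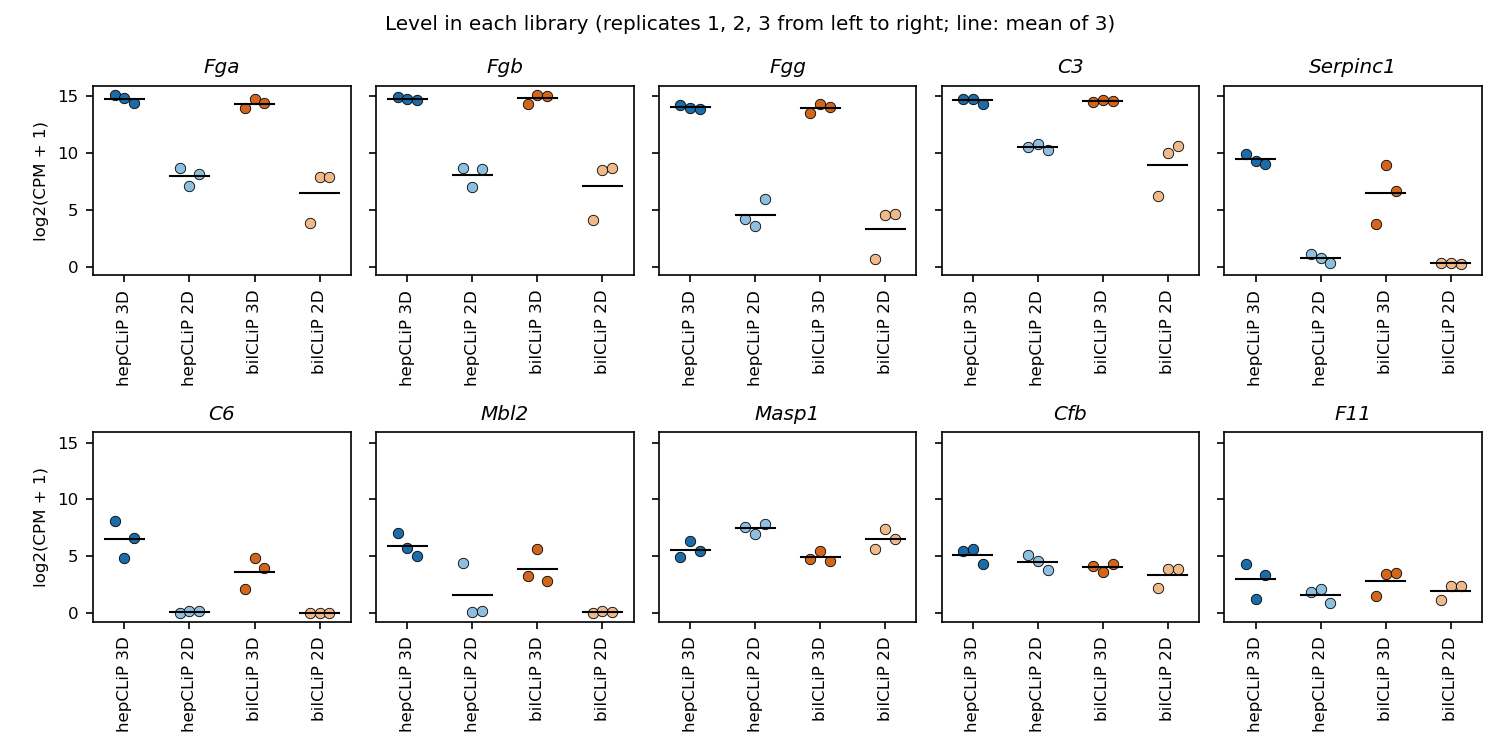
Level of 10 genes, as log2(CPM + 1), in each library, with points for libraries and a line for the mean of 3, for hepCLiP 3D, hepCLiP 2D, bilCLiP 3D and bilCLiP 2D from left to right. The fibrinogen chains, C3, Serpinc1 and C6 show no overlap between the 3D and 2D libraries of a cell type, Masp1 is lower in 3D, and Cfb and F11 overlap.

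Of the 11 genes of the clotting cascade, 10 rose in hepCLiP (median log2 fold change 7.11) and 9 in bilCLiP (median 10.09). The vitamin K dependent proteases were among them: F2, which encodes prothrombin, F7, F9 and F10. F2 had 1776, 2115 and 1550 CPM in hepCLiP 3D, against 49.5, 11.2 and 72.6 CPM in hepCLiP 2D (log2 fold change 5.35, SE 0.89, adjusted p = 0.00130). In bilCLiP F2 had 623, 2071 and 1036 CPM in 3D, against 2.50, 20.9 and 12.5 CPM in 2D (log2 fold change 6.70, SE 0.95, adjusted p = 0.000669). F2 was thus detected in every 2D library, at levels below every 3D library, and the bilCLiP value was 7.37 without 2D replicate 2.

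F9, factor IX, whose deficiency causes haemophilia B, was close to absent in 2D. It had 156, 190 and 152 CPM in hepCLiP 3D, against 0.139, 0.0455 and 0.05 CPM in hepCLiP 2D, from 7017 and 5 counts in all. In bilCLiP F9 had 112, 157 and 106 CPM in 3D, against 0.172 CPM in replicate 1 and no count in the other 2D libraries. Its log2 fold changes were 10.93 in hepCLiP (SE 0.54, adjusted p = 7e-06) and 10.95 in bilCLiP (SE 0.55, adjusted p = 4.97e-06), and in each comparison F9 had the lowest adjusted p of the 41 genes. Without 2D replicate 1 the F9 values were 11.59 in hepCLiP and 14.18 in bilCLiP. F10, factor X, rose by a log2 fold change of 8.18 in hepCLiP (SE 0.74, adjusted p = 6.5e-05), or 9.30 without 2D replicate 3. In bilCLiP F10 had 162, 311 and 134 CPM in 3D, against 1 count in all 3 2D libraries, a ratio of 14487 with an exact 95% interval of 2600 to 572260. Intervals and bounds of this kind cover counting error only, since PCR copies are not independent molecules.

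F7, factor VII, the protease that pairs with tissue factor, had 106, 145 and 118 CPM in hepCLiP 3D, against 0.324, 0 and 5.75 CPM in hepCLiP 2D. Its log2 fold change was 5.94 (SE 1.26, adjusted p = 0.00685), and 9.52 without hepCLiP 2D replicate 3, the highest of the 2D libraries. In bilCLiP F7 had 40.5, 154 and 52.0 CPM in 3D and no count in 2D, so that it was at least 1987-fold higher in 3D, taking 3 counts over the group as the limit of a count of 0, or at least 1102-fold without 3D replicate 2. F13b, the carrier subunit of factor XIII, was likewise without a count in bilCLiP 2D and at least 1284-fold higher in 3D, with 46.0, 71.3 and 44.5 CPM. In hepCLiP F13b rose by 8.02 on the log2 scale (SE 0.46, adjusted p = 1.86e-05), or 8.74 without 2D replicate 3. F5, the cofactor of factor Xa, had 387, 145 and 166 CPM in hepCLiP 3D, against 2.22, 0.773 and 2.05 CPM in hepCLiP 2D, and rose by log2 fold changes of 7.11 in hepCLiP (SE 0.57) and 7.81 in bilCLiP (SE 0.61).

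The contact system, which starts clotting on charged surfaces, was uneven. Kng1, which encodes kininogen, the source of bradykinin, had 6027, 7673 and 4842 CPM in hepCLiP 3D, against 5.37, 8.05 and 14.9 CPM in hepCLiP 2D. In bilCLiP Kng1 had 1261, 5488 and 4625 CPM in 3D, against 0.388, 5.01 and 5.01 CPM in 2D. Its log2 fold changes were 9.36 in hepCLiP (SE 1.06) and 10.09 in bilCLiP (SE 1.09), and reads of Kng1 and its near copy Kng2 could be exchanged. Kng2 itself rose by 5.14 in hepCLiP and 5.12 in bilCLiP on the log2 scale, the second value being 6.59 without bilCLiP 2D replicate 2. F12, the contact protease factor XII, had 509, 330 and 318 CPM in hepCLiP 3D, against 0.648, 0.364 and 6.99 CPM in hepCLiP 2D (log2 fold change 7.19, SE 1.00, adjusted p = 0.000502). Without hepCLiP 2D replicate 3 its value was 9.56. In bilCLiP F12 rose by 11.74 on the log2 scale (SE 1.34, adjusted p = 0.000206).

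The other contact proteases, factor XI and prekallikrein, were low. F11 had 18.7, 1.42 and 9.24 CPM in hepCLiP 3D, against 2.59, 3.27 and 0.799 CPM in hepCLiP 2D, and the groups overlapped (log2 fold change 2.13, SE 0.93, adjusted p = 0.0993). Without hepCLiP 3D replicate 1, the highest library, the value was 1.33. It was called without hepCLiP 3D replicate 2 (2.65, adjusted p = 0.0383) and by DESeq2 (2.19, adjusted p = 0.0319). In bilCLiP F11 had 1.78, 9.76 and 10.4 CPM in 3D, against 1.16, 4.12 and 4.10 CPM in 2D (log2 fold change 1.22, SE 0.90, adjusted p = 0.339). Klkb1, prekallikrein, had 1.03, 0.0709 and 1.46 CPM in hepCLiP 3D, from 36 counts, against 2 counts in hepCLiP 2D, a ratio of 27.2 with an exact 95% interval of 7 to 233. Its call in hepCLiP was marginal (log2 fold change 4.49, SE 1.59, adjusted p = 0.0486) and missed the threshold when any one of the 5 hepCLiP libraries other than 3D replicate 2 was left out (adjusted p 0.0911 to 0.131). The same held for bilCLiP 3D replicate 3 (0.0679) and bilCLiP 2D replicate 3 (0.0517), which enter through the shared spread. In bilCLiP Klkb1 had 0.0659, 1.72 and 0.580 CPM in 3D, against 0, 0.233 and 0 CPM in 2D (adjusted p = 0.106), and was called with replicate number as a block (log2 fold change 3.38, adjusted p = 0.00705).

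The 4 anticoagulant genes rose in both cell types, with medians of 3.68 in hepCLiP and 3.70 in bilCLiP on the log2 scale. Serpinc1 encodes antithrombin, the main inhibitor of thrombin and factor Xa. It had 972, 638 and 535 CPM in hepCLiP 3D, against 1.11, 0.682 and 0.250 CPM in hepCLiP 2D (log2 fold change 10.01, SE 1.33, adjusted p = 0.000409). In bilCLiP Serpinc1 had 12.6, 496 and 96.9 CPM in 3D, against 0.258, 0.233 and 0.182 CPM in 2D (log2 fold change 9.77, SE 1.37, adjusted p = 0.000632). The bilCLiP 3D libraries differed widely among themselves, all above 2D, and the value was 7.89 without bilCLiP 3D replicate 2.

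The remaining anticoagulants, which also rose in 3D, had higher CPM in the 2D libraries than Serpinc1 had there. Pros1, protein S, the cofactor of activated protein C, had 322, 141 and 209 CPM in hepCLiP 3D, against 29.3, 17 and 29.7 CPM in hepCLiP 2D (log2 fold change 3.14, SE 0.38, adjusted p = 0.000232). In bilCLiP Pros1 had 145, 116 and 210 CPM in 3D, against 24.1, 16.1 and 28.3 CPM in 2D (log2 fold change 2.78, SE 0.37, adjusted p = 0.000477). Proc, protein C, rose by 4.22 in hepCLiP (SE 0.86) and 3.25 in bilCLiP (SE 0.82), or 4 without bilCLiP 2D replicate 2. Serpind1, heparin cofactor II, rose by 2.68 in hepCLiP (SE 0.74, adjusted p = 0.0172) and 4.14 in bilCLiP (SE 0.79, adjusted p = 0.00318). Leaving out hepCLiP 2D replicate 1 or 3 put the hepCLiP adjusted p of Serpind1 at 0.0526 and 0.0634, above the threshold.

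The 5 genes of clot dissolution and its control rose in both cell types, with medians of 9.80 in hepCLiP and 13 in bilCLiP. Plg encodes plasminogen, the precursor of the protease plasmin. It had 1631, 2509 and 1223 CPM in hepCLiP 3D, against 0.879, 1.23 and 1.30 CPM in hepCLiP 2D (log2 fold change 10.61, SE 0.89, adjusted p = 4.64e-05). In bilCLiP Plg had 418, 2087 and 889 CPM in 3D, against 0.228 CPM in 2D replicate 3 and no count in the other 2D libraries (log2 fold change 13.83, SE 1.06, adjusted p = 2.73e-05). Vtn, vitronectin, an adhesion protein of plasma that also blocks the complement pore, had 4540, 5505 and 3941 CPM in hepCLiP 3D, against 3.70, 2.32 and 9.64 CPM in hepCLiP 2D (log2 fold change 9.80, SE 0.86). In bilCLiP Vtn had 3603, 4792 and 3123 CPM in 3D, against 0, 0.389 and 0.501 CPM in 2D (log2 fold change 13.63, SE 1.00). Plg and Vtn showed no overlap between cultures in either cell type. Leaving out 1 library gave 13.04 to 17.36 for Plg in bilCLiP, the highest without 2D replicate 3, which held its only 2D counts, and 10.59 for Vtn in hepCLiP without 2D replicate 3.

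Hrg, histidine-rich glycoprotein, which binds plasminogen and heparin, had 31.7, 326 and 150 CPM in bilCLiP 3D, against 1 count in bilCLiP 2D, a ratio of 12423 with an exact 95% interval of 2229 to 490730. In hepCLiP it rose by 11.03 on the log2 scale (SE 1.00), the largest of the 41 genes there. Serpinf2, the plasmin inhibitor alpha 2-antiplasmin, had 1415, 1022 and 1013 CPM in hepCLiP 3D, against 49.6, 5.27 and 111 CPM in hepCLiP 2D (log2 fold change 4.38, SE 1.34, adjusted p = 0.0272). In bilCLiP Serpinf2 had 310, 924 and 653 CPM in 3D, against 0.258, 34.8 and 6.97 CPM in 2D (log2 fold change 5.48, SE 1.42, adjusted p = 0.0144). As ratios between libraries, its 2D levels differed more among themselves than its 3D levels. Without 1 library the value reached 5.39 in hepCLiP (2D replicate 3) and 7.45 in bilCLiP (2D replicate 2). Its adjusted p missed the threshold in hepCLiP when 3D replicate 1 (0.0516), 2D replicate 1 (0.0804) or 2D replicate 2 (0.0603) was left out, and in bilCLiP when 2D replicate 3 was (0.0544).

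Cpb2, the carboxypeptidase TAFI, which slows fibrin breakdown, had 81.1, 582 and 266 CPM in bilCLiP 3D, against 0.129, 30.0 and 6.83 CPM in bilCLiP 2D (log2 fold change 4.65, SE 1.46, adjusted p = 0.0337). Leaving out bilCLiP 3D replicate 2 gave 3.81 and an adjusted p of 0.0953. The adjusted p was 0.0591 without bilCLiP 3D replicate 3 and 0.105 without bilCLiP 2D replicate 3, and the value was 6.48 without 2D replicate 2. In hepCLiP Cpb2 rose by 6.66 on the log2 scale (SE 1.61, adjusted p = 0.00903), or 8.34 without 2D replicate 2.

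In the classical route of complement all 4 genes rose in both cell types. C4b, the component cut by the C1 complex, had 2379, 1004 and 1490 CPM in hepCLiP 3D, against 5.46, 3.46 and 0.699 CPM in hepCLiP 2D (log2 fold change 8.98, SE 1.10, adjusted p = 0.000267). In bilCLiP C4b had 263, 927 and 966 CPM in 3D, against 0.474, 1.01 and 4.10 CPM in 2D (log2 fold change 8.60, SE 1.09, adjusted p = 0.000357). The 3D and 2D libraries did not overlap, and reads could be exchanged with the near copy C4a. Without 1 library the hepCLiP value reached 9.60 (2D replicate 1) and the bilCLiP value 9.90 (2D replicate 3). C1s1, the C1 protease that cuts C4 and C2, had 270, 371 and 239 CPM in hepCLiP 3D, against 9.39, 12.8 and 1.40 CPM in hepCLiP 2D (log2 fold change 5.22, SE 0.70). In bilCLiP C1s1 had 49.1, 86.9 and 114 CPM in 3D, against 0.344, 0.777 and 1.05 CPM in 2D (log2 fold change 6.84, SE 0.79). C1ra, the protease that activates C1s, rose by 3.98 in hepCLiP (SE 0.75), or 4.68 without 2D replicate 2, and by 5.17 in bilCLiP (SE 0.81), or 4.39 without 3D replicate 2. Reads of C1s1 and C1ra could likewise be exchanged with their near copies C1s2 and C1rb.

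C2, the protease part of the C3 convertase, rose least among the classical genes, with 16.7, 16.6 and 17.7 CPM in hepCLiP 3D, against 8.60, 5.64 and 3.05 CPM in hepCLiP 2D (log2 fold change 1.56, SE 0.38, adjusted p = 0.00898). In bilCLiP C2 had 25.0, 40.2 and 26.4 CPM in 3D, against 4, 6.84 and 8.84 CPM in 2D (log2 fold change 2.22, SE 0.38, adjusted p = 0.00181). The recognition subunits C1qa, C1qb and C1qc, which are made mainly by macrophages, had at most 0.139 CPM in any library and were not tested. Of 5 macrophage markers, Adgre1 and Clec4f had no count in either 3D group. Csf1r had 385 counts in hepCLiP 3D, against 206 in hepCLiP 2D (fold change 2.81, adjusted p = 0.130). In the bilCLiP libraries it had 589 counts in 3D, against 264 in 2D (fold change 3.09, adjusted p = 0.109). Cd68 went the other way, with 75 counts in hepCLiP 3D, against 278 in hepCLiP 2D (fold change 0.408, adjusted p = 0.128). In bilCLiP Cd68 had 108 counts in 3D, against 301 in 2D (fold change 0.502, adjusted p = 0.245). Ptprc had at most 10 counts in any group.

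The lectin route held both the exception to the general rise and 2 genes with no count in bilCLiP 2D. Masp1, a protease that associates with mannose-binding lectin, had 29.5, 78.4 and 43.5 CPM in hepCLiP 3D, against 194, 125 and 231 CPM in hepCLiP 2D (log2 fold change -1.86, SE 0.48, adjusted p = 0.0125). In bilCLiP Masp1 had 25.9, 42.5 and 22.9 CPM in 3D, against 48.3, 165 and 93.1 CPM in 2D (log2 fold change -1.75, SE 0.48, adjusted p = 0.0193). Every 3D library lay below every 2D library of its cell type. Among RosaYFP samples alone, with 1 hepCLiP library in each culture, the hepCLiP value was -0.67. The fall missed the threshold in hepCLiP when 3D replicate 1 was left out (-1.51, adjusted p = 0.0536). In bilCLiP it did so when any of 3 libraries was left out: 3D replicate 1 gave -1.62 (adjusted p = 0.0636), 3D replicate 3 gave -1.58 (0.0727) and 2D replicate 2 gave -1.21 (0.0801). The gene also encodes MASP-3 and a short form without a protease domain, which these counts do not separate.

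Masp2, the protease that cuts C4 in this route, had 74.9, 22.0 and 24.9 CPM in hepCLiP 3D, against 0.185, 0.136 and 0.0999 CPM in hepCLiP 2D (log2 fold change 8.10, SE 1.19, adjusted p = 0.00125). In bilCLiP Masp2 had 4.35, 28.2 and 3.08 CPM in 3D and no count in 2D, at least 290-fold higher, or at least 86.7-fold higher without bilCLiP 3D replicate 2. Mbl1, the lectin MBL-A, had 20.4, 13.7 and 20.8 CPM in hepCLiP 3D, against 0.0925, 0 and 0.200 CPM in hepCLiP 2D (log2 fold change 7.49, SE 0.71, adjusted p = 0.000175). In bilCLiP Mbl1 had 13.1, 6.20 and 11.1 CPM in 3D and no count in 2D, at least 237-fold higher. Both genes were thus clear of their 2D libraries in both cell types. In hepCLiP the value of Masp2 was 7.38 without 3D replicate 1 and that of Mbl1 8.44 without 2D replicate 3.

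Mbl2, the second mannose-binding lectin (MBL-C), had 131, 53.1 and 31.1 CPM in hepCLiP 3D, against 20.6, 0.0909 and 0.150 CPM in hepCLiP 2D. The groups did not overlap, but 2D replicate 1 stood far above the other 2D libraries and the change was not called (log2 fold change 3.36, SE 1.49, adjusted p = 0.103). It was called without that library (9.15, adjusted p = 0.00223) and with replicate number as a block (5.12, adjusted p = 0.00748). In bilCLiP Mbl2 had 8.63, 47.9 and 6.21 CPM in 3D, against 0, 0.155 and 0.0456 CPM in 2D (log2 fold change 8.09, SE 2.18, adjusted p = 0.0177), and the adjusted p was 0.0533 to 0.0607 when 3D replicate 2 or any one 2D library was left out. The lowest of those values was 6.60, without 3D replicate 2, and the highest 9.50, without 2D replicate 2.

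C3, at which all routes meet, was already abundant in 2D and rose in both cell types. It had 28390, 27920 and 20810 CPM in hepCLiP 3D, against 1476, 1785 and 1205 CPM in hepCLiP 2D (log2 fold change 4.11, SE 0.82, adjusted p = 0.00336). In bilCLiP C3 had 23320, 25690 and 24650 CPM in 3D, against 72.7, 1037 and 1531 CPM in 2D (log2 fold change 4.80, SE 0.85, adjusted p = 0.00204). The bilCLiP 3D libraries lay close together, while 2D replicate 1 was far below the other 2D libraries. Without bilCLiP 2D replicate 3 the value was 5.47.

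Cfb, factor B, the protease of the alternative route, was not called in either cell type. It had 43.4, 47.6 and 18.8 CPM in hepCLiP 3D, against 34.5, 22.2 and 13.1 CPM in hepCLiP 2D (log2 fold change 0.65, SE 0.52, adjusted p = 0.361). In bilCLiP Cfb had 16.3, 11.3 and 19.0 CPM in 3D, against 3.53, 13.4 and 13.8 CPM in 2D (log2 fold change 0.60, SE 0.53, adjusted p = 0.428). The cultures overlapped in both cell types, and a p that misses the threshold does not show that Cfb was at one level.

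Both regulators in the set rose. Cfi, the protease that inactivates C3b and C4b, had 1787, 2063 and 1537 CPM in hepCLiP 3D, against 279, 222 and 308 CPM in hepCLiP 2D (log2 fold change 2.74, SE 0.31, adjusted p = 0.000189). In bilCLiP Cfi had 1795, 2165 and 1762 CPM in 3D, against 142, 348 and 300 CPM in 2D (log2 fold change 2.86, SE 0.32, adjusted p = 0.000163). C4bp, which binds C4b and serves as a cofactor of factor I, rose by 6.39 in hepCLiP (SE 0.66), or 7.17 without 2D replicate 1, and by 5.12 in bilCLiP (SE 0.62).

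Of the 6 terminal components, 5 rose in hepCLiP and all 6 in bilCLiP. Hc, the gene of C5, from which assembly of the pore starts, had 488, 542 and 256 CPM in hepCLiP 3D, against 1.53, 0.0455 and 0.500 CPM in hepCLiP 2D (log2 fold change 9.26, SE 1.06). In bilCLiP Hc had 71.1, 514 and 245 CPM in 3D, against 0, 0.117 and 0.182 CPM in 2D (log2 fold change 11.36, SE 1.23). C9, which forms the ring of the pore, had 593, 685 and 340 CPM in hepCLiP 3D, against 2.91, 0.455 and 1.90 CPM in hepCLiP 2D (log2 fold change 8.26, SE 1.19). In bilCLiP C9 had 286, 368 and 518 CPM in 3D, against 0, 0.583 and 4.10 CPM in 2D (log2 fold change 7.98, SE 1.18), or 10.31 without 2D replicate 3. Without hepCLiP 2D replicate 1 the hepCLiP values were 10.63 for Hc and 8.85 for C9, and in bilCLiP the value of Hc ran from 10.55 without 3D replicate 2 to 12 without 2D replicate 3. Hc and C9 did not overlap between cultures in either cell type.

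C6 had 278, 28.6 and 97.7 CPM in hepCLiP 3D, against 0, 0.136 and 0.0999 CPM in hepCLiP 2D (log2 fold change 10.63, SE 1.44, adjusted p = 0.000830). In bilCLiP C6 had 3.42, 27.5 and 14.6 CPM in 3D and no count in 2D, at least 371-fold higher, or at least 222-fold without 3D replicate 2. The highest library, hepCLiP 3D replicate 1, was also the one with 282 CPM of the fibroblast and stellate marker Dcn, against at most 17.8 CPM in any other library. In hepCLiP 3D replicate 1 the other markers of that list, Col1a1, Col3a1, Pdgfrb and Lrat, had 1.17, 0, 0.293 and 0.366 CPM. The hepCLiP value of C6 was 9.60 without that library and 11.26 without 2D replicate 2. Whether fibroblast or stellate cells were present or had a part in the level of C6 was not tested.

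The C8 subunits, which join into one protein, were unequal. C8g had 33.8, 45.3 and 35.1 CPM in hepCLiP 3D, against 2.22, 2.05 and 3.35 CPM in hepCLiP 2D (log2 fold change 3.91, SE 0.35, adjusted p = 6.38e-05), and rose by 3.43 in bilCLiP (SE 0.34). C8b had 2.42, 14.6 and 1.32 CPM in hepCLiP 3D, against 4 counts in hepCLiP 2D (log2 fold change 6.47, SE 1.21), or 4.77 without 3D replicate 2 and 7.66 without 2D replicate 1. In bilCLiP C8b had 4.35, 5.51 and 1.86 CPM in 3D, against 1 count in 2D, a ratio of 276 with an exact 95% interval of 49.0 to 10956. C8a had 2.34, 6.17 and 2.64 CPM in hepCLiP 3D, against 0.416, 0.182 and 0 CPM in hepCLiP 2D, and was not called (log2 fold change 4.16, SE 1.53, adjusted p = 0.0640; 5.22 without 2D replicate 1), though it was called with replicate number as a block (4.19, adjusted p = 0.0110) and by DESeq2 (4.26, adjusted p = 0.00578). In bilCLiP C8a had 14.7, 0.230 and 1.16 CPM in 3D and no count in 2D, at least 117-fold higher. The bound was 16.4-fold without 3D replicate 1, which stood far above the others, and 177-fold without 3D replicate 2.

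Per kilobase of exon, the terminal components spanned a wide range in 3D. In hepCLiP 3D the levels per kilobase were 211 ± 69.8 CPM for C9, 68.5 ± 24.2 CPM for Hc, 37.9 ± 36.2 CPM for C6, 25.5 ± 4.22 CPM for C8g, 2.40 ± 2.90 CPM for C8b and 1.02 ± 0.586 CPM for C8a (SD, n = 3). In bilCLiP 3D they were 153 ± 46.0 CPM for C9, 44.2 ± 35.7 CPM for Hc, 19.1 ± 8.02 CPM for C8g, 4.27 ± 3.39 CPM for C6, 1.53 ± 0.734 CPM for C8b and 1.47 ± 2.23 CPM for C8a. Within single libraries, the order of C8b and C8a varied in both 3D groups. So did the order of C6 against Hc and C8g in hepCLiP 3D, and of C6 against C8b in bilCLiP 3D. Hc lay above C8g in every 3D library, most narrowly in bilCLiP 3D replicate 1 (11.3 against 9.93 CPM per kilobase). Differences between genes were not tested. C7, the component between C6 and C8 in the order of assembly, had 0.0274 CPM per kilobase in hepCLiP 3D replicate 1 and no count in any other library, and was not tested.

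**Figure D4:**
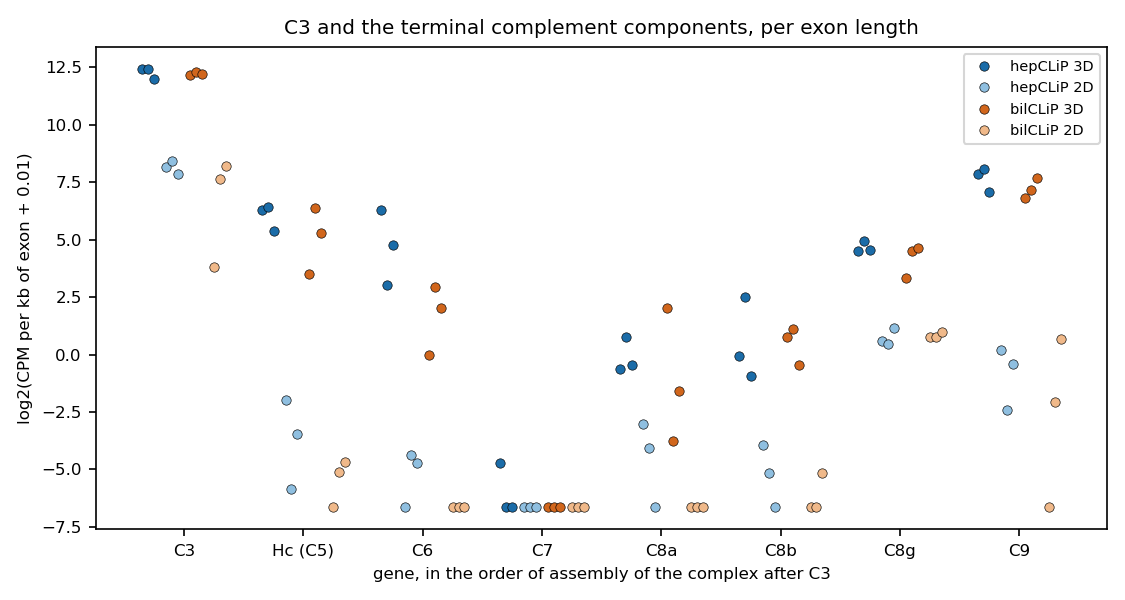
Level per kilobase of exon of C3 and the terminal complement genes, as log2(CPM per kb + 0.01), in each library, with genes in the order of assembly and libraries coloured by group. C9 and Hc are high in 3D, C8a and C8b are low in 3D and near the detection limit in 2D, and C7 lies at the floor of the scale in all libraries but 1.

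The rest of the 2 systems was followed with 28 further coagulation genes and 29 further complement genes, of which 23 and 13 passed the filter. In coagulation 7 rose and 9 fell in hepCLiP, where 34.7% of all genes were called, and 8 rose and 10 fell in bilCLiP, where 30.3% were. The median log2 fold changes of the tested genes were -1.13 and -1.04, against -0.06 and 0.00 over all genes. In complement 7 rose and 1 fell in hepCLiP, and 7 rose and 2 fell in bilCLiP, with medians of 0.64 and 0.76.

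The coagulation genes that rose most encode secreted inhibitors and a cofactor of one of them. Proz, protein Z, a cofactor in the inhibition of factor Xa, had 300, 458 and 317 CPM in hepCLiP 3D, against 0.509, 0.364 and 1.70 CPM in hepCLiP 2D (log2 fold change 8.71, SE 0.60, adjusted p = 1.61e-05), and rose by 9.98 in bilCLiP. The hepCLiP value was 9.66 without 2D replicate 3. Its partner Serpina10, the protein Z-dependent inhibitor, rose by 6.98 in hepCLiP, or 7.89 without 2D replicate 1, and by 9.40 in bilCLiP. Tfpi2, a Kunitz-type protease inhibitor, had 17.5, 15 and 1.04 CPM in hepCLiP 3D, against 1 count in hepCLiP 2D, a ratio of 702 with an exact 95% interval of 125 to 27795, and was at least 315-fold higher in bilCLiP 3D.

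Among the coagulation genes that fell were a thrombin receptor and the urokinase system of plasminogen activation. Thbd, thrombomodulin, the receptor that turns thrombin towards protein C, had 7.99, 10.3 and 10.9 CPM in hepCLiP 3D, against 133, 132 and 198 CPM in hepCLiP 2D (log2 fold change -3.99, SE 0.26, adjusted p = 1.12e-05). In bilCLiP Thbd had 5.47, 6.26 and 7.83 CPM in 3D, against 202, 166 and 124 CPM in 2D (log2 fold change -4.65, SE 0.26, adjusted p = 5.41e-06). Plau, the urokinase-type plasminogen activator, fell by 4.17 on the log2 scale in bilCLiP (-5.22 without 3D replicate 1, -3.47 without 2D replicate 1). In hepCLiP Plau had 3 counts in 3D against 495 in 2D, a ratio of 0.00915 with an exact 95% interval of 0.00188 to 0.0269. Its receptor Plaur fell by 2.43 in hepCLiP.

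Among complement regulators, Serping1, the C1 inhibitor, had 1090, 274 and 229 CPM in hepCLiP 3D, against 0.925, 0.409 and 0.05 CPM in hepCLiP 2D (log2 fold change 10.13, SE 1.08), or 9.12 without 3D replicate 1, the library with the high Dcn. Its hepCLiP value was 11.10 without 2D replicate 1. In bilCLiP it rose by 8.66 (SE 1.01), or 7.98 without 3D replicate 2. Cfhr2, of a family of secreted complement regulators, had 1560, 1449 and 2393 CPM in hepCLiP 3D, against 0.879, 0.182 and 10.8 CPM in hepCLiP 2D, and rose by 8.84 in hepCLiP and 12.38 in bilCLiP, or by 11.71 without hepCLiP 2D replicate 3 and 13.77 without bilCLiP 2D replicate 3. Cd55, the membrane factor that speeds decay of convertases, had 0.725, 0.918 and 2.44 CPM in bilCLiP 3D, against 5.99, 4.59 and 9.84 CPM in bilCLiP 2D (log2 fold change -2.31, SE 0.64, adjusted p = 0.0200), which missed the threshold when 3D replicate 1, 3D replicate 2 or 2D replicate 3 was left out (adjusted p 0.0667 to 0.0787). Its value was -3.04 without 3D replicate 3. C1qbp, a mostly mitochondrial protein that can bind C1q, fell by 0.93 in hepCLiP and by 0.55 in bilCLiP, and the bilCLiP call was lost without any one of 6 libraries.

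**Figure D5:**
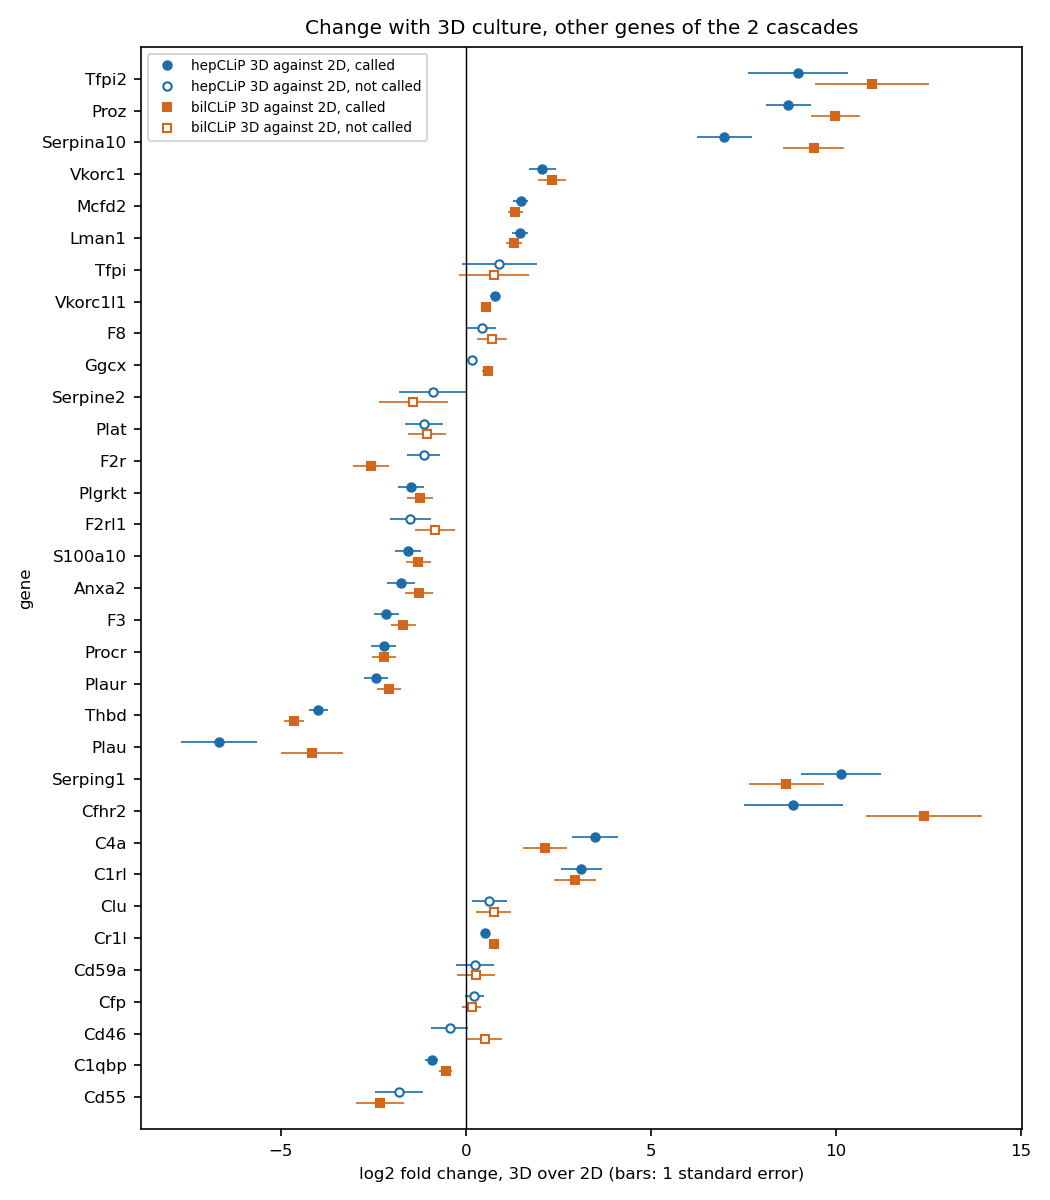
Log2 fold change, 3D over 2D, of 33 other tested genes of coagulation (upper rows) and complement (lower rows) in hepCLiP (circles) and bilCLiP (squares), with bars of 1 standard error and filled symbols for genes called. Tfpi2, Proz, Serpina10, Serping1 and Cfhr2 lie far to the right of 0, and Thbd, Plau and Plaur lie to the left.

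Origin and genotype overlap, since RosaConfetti cells were in hepCLiP alone. The RosaYFP samples alone left 1 hepCLiP library in each culture, too few for a test between the origins to decide. In 3D, none of the 41 genes was called between bilCLiP and hepCLiP by edgeR, where 0.101% of all genes were called, and none by DESeq2, which called 4.07% of all genes. At an unadjusted p under 0.05 there were 5 genes, 4 of them lower in bilCLiP, where 16.6% of all genes passed. The median log2 fold change was -0.58, against 0.00 over all genes, and 36 of the 41 means were lower in bilCLiP, where 49.8% of all genes had a lower mean. The bilCLiP 3D libraries were uneven: the set took 7.74%, 11.1% and 9.87% of the counts of replicates 1, 2 and 3. In hepCLiP 3D it took 10.8%, 9.88% and 8.82%. Replicate 1 was the lowest bilCLiP 3D library for 27 of the 41 genes, where 36.1% of all genes were lowest there. The groups did not overlap for 7 genes lower in bilCLiP (Serpinc1, Serpinf2, Hrg, C1s1, C4b, Mbl1 and C6), where 10.1% of all genes did so, and for 1 gene higher (C2), where 11.7% did so.

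The lowest adjusted p in 3D was that of C6, at 0.187 (log2 fold change -3.15, SE 0.91), with the values given above. Its value was -2.07 without hepCLiP 3D replicate 1, -3.90 without bilCLiP 3D replicate 2 and -0.92 among RosaYFP samples alone. C1s1 stood at -1.82 on the log2 scale (SE 0.60, adjusted p = 0.204), Hrg at -1.68 (SE 0.63, adjusted p = 0.239) and Cfb at -1.24 (SE 0.53, adjusted p = 0.281). With bilCLiP 3D replicate 2 left out, Hrg stood at -2.58. C2 stood at 0.84 on the log2 scale (SE 0.37, adjusted p = 0.287), its bilCLiP 3D libraries all lying above the hepCLiP 3D libraries. The fibrinogen chains were between -0.40 and 0.08, C3 was at -0.07 (SE 0.72) and Cfi at 0.09 (SE 0.29). None of these passed the threshold, which does not show that the cell types were alike.

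In 2D, again none of the 41 genes was called between bilCLiP and hepCLiP by edgeR, where 0.135% of all genes were called. At an unadjusted p under 0.05 there were 13 genes, all lower in bilCLiP, where 14.5% of all genes passed. DESeq2 called 8 genes, all lower in bilCLiP: F7, F10, F12, F13b, Plg, Vtn, C1s1 and Mbl2, where it called 3.31% of all genes. The Mbl2 value rested on hepCLiP 2D replicate 1: edgeR gave -6.50 with that library, -0.72 without it and -0.36 among RosaYFP samples alone. Without hepCLiP 2D replicate 3, edgeR gave -3.02 for F12 in place of -5.39 and -4.56 for F10 in place of -5.68. The median log2 fold change was -1.45, against -0.04 over all genes, and 34 of the 41 means were lower in bilCLiP, where 54.3% of all genes had a lower mean. The groups did not overlap for 9 genes lower in bilCLiP (F10, F12, F13b, Kng1, Plg, Hrg, Vtn, C1s1 and Masp2), where 11.9% of all genes did so, and for 0 genes higher, where 9.06% did so.

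Vtn had the lowest adjusted p in 2D, 0.0870 (log2 fold change -4.11, SE 0.76), with 0, 0.389 and 0.501 CPM in bilCLiP 2D, against 3.70, 2.32 and 9.64 CPM in hepCLiP 2D. DESeq2 gave -4.13 with an adjusted p of 3.3e-08. The edgeR value was -3.32 without hepCLiP 2D replicate 3 and -2.95 among RosaYFP samples alone. C1s1 followed (-3.44, SE 0.72, adjusted p = 0.109) and was called without hepCLiP 2D replicate 3 (-3.93, adjusted p = 0.0208). The treatment label of that library reads 3D, but its C1s1 level was the lowest of hepCLiP 2D. It was 1.40 CPM, against 9.39 and 12.8 CPM in replicates 1 and 2 and 239 to 371 CPM in hepCLiP 3D. F7, F13b, Masp2, Mbl1, C6 and C8a had no count in any bilCLiP 2D library. Against 3 counts over the group, F7 was at least 45.3-fold and F13b at least 6.31-fold lower in bilCLiP 2D. Without hepCLiP 2D replicate 3, which held most of their counts, both bounds were 3.79-fold, and that of F7 was 69.2-fold without hepCLiP 2D replicate 2.

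Whether the genes differed more between the cultures in bilCLiP than in hepCLiP was tested as the difference between the culture effects. None of the 41 genes was called by edgeR, where 0% of all genes were called, and 7 had an unadjusted p under 0.05, all with the larger change in bilCLiP, where 3.6% of all genes passed. DESeq2 called Vtn (3.81, adjusted p = 0.00759), where it called 0.11% of all genes. For Vtn edgeR gave 3.83 (SE 0.95, unadjusted p = 0.00209), or 3.04 without hepCLiP 2D replicate 3 and 2.42 among RosaYFP samples alone. The other 6 were F7, F10, F12, F13b, Plg and Mbl1, all with 5 or fewer counts in bilCLiP 2D. The difference was positive for 29 of the 41 genes, with a median of 0.70 over the set, against 0.06 over all genes tested.

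Libraries of one group were not equal. In bilCLiP 3D, replicate 1 was the lowest library for 27 of the 41 genes, where 36.1% of all genes were lowest in that library. Replicate 2 was the highest for 32, for which the share of all genes is not given. Other groups were uneven too. The lowest library was hepCLiP 3D replicate 3 for 25 genes (35.3% of all genes), hepCLiP 2D replicate 2 for 23 (31.4%) and bilCLiP 2D replicate 1 for 22 (37.6%). Alb, the hepatocyte marker albumin, had 6026, 19970 and 22890 CPM in bilCLiP 3D, against 0.861, 49.9 and 69.3 CPM in bilCLiP 2D. The hepatocyte markers Apoa1, Cebpa and Cps1 were also lowest in bilCLiP 3D replicate 1. Hnf4a was lowest there by little, with 571, 711 and 579 CPM, and Ttr was not, with 6942, 7725 and 6930 CPM. In bilCLiP 2D, 15 of the 41 genes had no count in replicate 1, against 10 in replicate 2 and 9 in replicate 3, although its total of 18449912 counts was similar to the others. The share of all genes without a count is not given for these libraries.

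Cell type markers were read beside these results. The sum of 6 hepatocyte markers ran from 40755 to 51470 CPM in hepCLiP 3D, against 341 to 1607 CPM in hepCLiP 2D, and from 17393 to 43229 CPM in bilCLiP 3D, against 180 to 1043 CPM in bilCLiP 2D. The sum of 6 biliary markers, mostly Spp1, ran from 11268 to 33257 CPM over both 3D groups, against 3114 to 10331 CPM over both 2D groups, while the biliary keratin Krt19 ran from 1.17 to 18.7 CPM in 3D, against 476 to 1100 CPM in 2D. Cftr also fell in both cell types, from 26 counts in hepCLiP 2D and 89 in bilCLiP 2D to 0 and 7 in 3D. Krt7 fell in hepCLiP (log2 fold change -3.18, adjusted p = 0.0225) and was not called in bilCLiP (-2.01, adjusted p = 0.114). In hepCLiP and bilCLiP, Sox9 (-0.003 and -0.11) and Epcam (-0.44 and 0.63) were not called. The 5 endothelial markers summed to at most 0.556 CPM in 3D, against at most 3.66 CPM in 2D, and the 5 macrophage markers to at most 19.5 CPM in 3D, against at most 10.9 CPM in 2D. The 4 mesothelial markers, nearly all Msln, summed to 5.57 to 27.9 CPM in 3D, against 334 to 989 CPM in 2D. The 4 megakaryocyte and platelet markers summed to at most 3.37 CPM in 3D, against at most 2.28 CPM in 2D.

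The 5 fibroblast and stellate markers, mostly Dcn in 3D, summed to 3.61 to 283 CPM in hepCLiP 3D, against 0.773 to 4.35 CPM in hepCLiP 2D, and to 6.72 to 19.0 CPM in bilCLiP 3D, against 0.155 to 1.73 CPM in bilCLiP 2D. These sums overlapped between the cultures in hepCLiP and not in bilCLiP. Dcn, which encodes the matrix proteoglycan decorin, had 282, 4.68 and 2.64 CPM in hepCLiP 3D, against 2.22, 0.0909 and 1.85 CPM in hepCLiP 2D (log2 fold change 6.12, SE 1.88, adjusted p = 0.0276). Its value was 1.47 without hepCLiP 3D replicate 1 (adjusted p = 0.466), and the call was also lost without any one hepCLiP 2D library (adjusted p 0.0652 to 0.0791). In bilCLiP Dcn had 6.98, 6.37 and 17.8 CPM in 3D, against 0, 0 and 1.14 CPM in 2D, and was not called (log2 fold change 4.81, SE 1.94, adjusted p = 0.0849). The Dcn levels did not overlap between the cultures of either cell type, those of Col1a1 overlapped in both, and Col3a1, Pdgfrb and Lrat were not tested. The part of these marker shifts in the changes above was not tested.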

How the data were processed

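The deposited table held raw gene counts of 12 libraries, made by the authors with STAR 2.7.10b and featureCounts 2.0.1 on GRCm39, per the submitters' processing notes, which also name DESeq2. Neither the annotation nor the strand setting is given in the sources used here. The deposited normalized table was not used. Genes that passed edgeR's expression filter by group (14798 of 53599) were scaled by TMM and tested with edgeR 4.0.16 (limma 3.58.1, R 4.3.3), quasi-likelihood, on all 12 libraries with 1 mean per group. Adjusted p-values are Benjamini-Hochberg over all 14798 genes. CPM uses the scaled library size. Exon lengths are unions from GENCODE vM21 (GRCm38).

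The 41 genes and the other lists were chosen with earlier results of these data known. All members were reported. The other coagulation and complement genes named were up to 3 in each direction, by fold change among those called in each comparison and list whose mean reached 5 CPM in either group. Some of these are not reported here, though the counts include them. Same-numbered cultures of one origin deviated together (r 0.474 to 0.513 in hepCLiP, 0.432 to 0.506 in bilCLiP), so replicate numbers paired them. Origins in one culture were not paired (0.0218 to 0.150).

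Alternatives were DESeq2 1.42.0, RLE, upper quartile and library size scaling, no filter and a stricter one, a test against a 2-fold change, the 2 groups only, a replicate block, RosaYFP samples only and each library left out. Scripts were tested on simulated data. Bounds use 3 counts over the group as the limit of a count of 0.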

Additional observations from a re-analysis of the deposited data

How the results depend on the processing

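Across the processing settings other than genotype, 32 to 39 of the 41 genes were called in each culture comparison. Except where stated, the share of all genes called under a setting is not given here, so these counts compare settings only. Leaving out each replicate in turn gave 34 to 38 in hepCLiP and 35 to 38 in bilCLiP. With the RosaYFP samples only, hepCLiP gave 17 members and 13 other cascade genes, a setting with fewer samples, and the single reversal was F11 in hepCLiP at -1.20. DESeq2 called 8 members between the origins in 2D and 1 in the difference between culture effects, where edgeR called 0 and leaving out a replicate gave 0 to 1 in 2D; the cause was not tested. The test against a 2-fold change left 15 other cascade genes called in bilCLiP. With replicate number as a block, 39 members were called in each culture comparison and 0 between origins, and beyond Mbl2 and C8a in hepCLiP and Klkb1 in bilCLiP the pairing changed no count by over 1.5 times. Scaling by library size alone moved the median of all genes to -0.63 in hepCLiP and -0.47 in bilCLiP, with 1292 higher and 6623 lower calls in hepCLiP and 1346 and 5417 in bilCLiP, against 2497 and 2642, and 2335 and 2150. The members' medians were then 5.88 and 7.15, and their directions stayed. Genes with few counts in 2D, such as C8b and Klkb1, are limited by depth.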

Other observations

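Several other genes of coagulation, chosen here after their values were seen, handle the factors inside the cell or bind them at its surface. Lman1 and Mcfd2, which encode the receptor that carries factors V and VIII out of the endoplasmic reticulum, rose in 3D. Lman1 had 429, 339 and 263 CPM in hepCLiP 3D, against 145, 109 and 122 CPM in hepCLiP 2D (log2 fold change 1.46, SE 0.22), and rose by 1.30 in bilCLiP (SE 0.22). Mcfd2 rose by 1.48 in hepCLiP (SE 0.20) and 1.33 in bilCLiP (SE 0.20). Vkorc1, the vitamin K reductase that sustains carboxylation of the clotting proteases, rose by 2.06 in hepCLiP (SE 0.37) and 2.33 in bilCLiP (SE 0.37). Ggcx, the carboxylase itself, was not called in hepCLiP (log2 fold change 0.16, SE 0.16, adjusted p = 0.478) and rose by 0.59 in bilCLiP (SE 0.16, adjusted p = 0.0174).

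Anxa2, S100a10 and Plgrkt, whose products help to bind plasminogen at the cell surface, each fell in both cell types. Anxa2 had 334, 242 and 584 CPM in hepCLiP 3D, against 1029, 1224 and 1642 CPM in hepCLiP 2D (log2 fold change -1.75, SE 0.38), and fell by 1.27 in bilCLiP. Its partner S100a10 fell by 1.57 in hepCLiP and 1.28 in bilCLiP, and Plgrkt fell by 1.48 in hepCLiP and 1.24 in bilCLiP.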
